A study of Mus musculus with 3 samples.

Results

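B cell genes were followed in RNA from the epithelium that covers lymphoid follicles in the small intestine of mice. They are 37 genes of B lymphocytes listed by name, by a rule that uses no measured value but was drawn up with earlier results of these data known, and 35 of them had a probe set of their own symbol among the 18193 genes on the array. Cd38 and Lyn were not analysed here. For a gene with several probe sets, the one with the highest mean over the 3 arrays stood for the gene. All 35 passed the filter on dim genes, a mean of at least 0.598, and were among the 11885 genes tested.

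The RNA came from follicle-associated epithelium of untreated C57BL/6 mice depleted of RBP-J by VillinCre with Rbpjflox/flox, on 2 arrays called here first and second, and from the same tissue of wild type RBP-J mice of the same strain, on 1 array. The Villin promoter drives Cre in intestinal epithelial cells. The labels and design text leave out age, animals per array and whether wild type mice carried floxed alleles or Cre. Nothing says that the depleted samples came from separate animals, so their spread may be technical.

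B cells recognise antigen through a membrane immunoglobulin held with the signalling chains CD79a and CD79b. Src family kinases and Syk pass the signal to adaptors, phospholipase C and phosphoinositide 3-kinase, while co-receptors such as CD22 and CD21 damp or strengthen it. Pax5 and Ebf1 set the identity of the lineage, and chemokine receptors bring B cells into follicles. In Peyer's patches B cells lie just under the follicle-associated epithelium and also sit in the pockets of its M cells, the cells that carry antigen across. RBP-J binds DNA and turns Notch receptor signals into changes in transcription.

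Sequences before the starts of 5 members are shown. Cd22, Cr2 and Fcmr were at least 1.5-fold lower than wild type in both depleted arrays. Ms4a1, which was too, had no window at hand. Pou2af1 was at least 1.5-fold lower in the first and higher in the second on the values as deposited. So were Cd37 and Mef2c, which are not shown. Vpreb3, also lower in the first and higher in the second but by less, is shown as a holder of the octamer described below. Other members with a like pattern or with the octamer are not shown. Each is the 250 bases before a RefSeq gene start of assembly GRCm38.p6, read in the direction of the gene. The windows are chr7:30879029-30879278 on the minus strand for Cd22, chr1:195176720-195176969 on the minus strand for Cr2, chr1:130865527-130865776 on the plus strand for Fcmr, chr9:51213440-51213689 on the plus strand for Pou2af1 and chr10:75948050-75948299 on the plus strand for Vpreb3. Capitals mark matches on either strand to TGGGAA, the core letters of RBP-J sites, or to the octamer ATGCAAAT. Oct factors bind the octamer, and the Pou2af1 product acts through it. Whether RBP-J binds at any match was not tested.
Cd22: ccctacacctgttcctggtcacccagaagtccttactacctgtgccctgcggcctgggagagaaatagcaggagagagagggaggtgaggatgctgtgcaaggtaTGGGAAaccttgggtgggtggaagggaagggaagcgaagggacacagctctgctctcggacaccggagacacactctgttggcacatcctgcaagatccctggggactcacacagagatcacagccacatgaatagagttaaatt
Cr2: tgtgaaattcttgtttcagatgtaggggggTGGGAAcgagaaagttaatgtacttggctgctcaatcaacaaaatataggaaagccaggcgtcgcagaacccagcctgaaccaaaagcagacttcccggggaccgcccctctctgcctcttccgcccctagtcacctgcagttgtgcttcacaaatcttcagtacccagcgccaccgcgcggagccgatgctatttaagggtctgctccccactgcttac
Fcmr: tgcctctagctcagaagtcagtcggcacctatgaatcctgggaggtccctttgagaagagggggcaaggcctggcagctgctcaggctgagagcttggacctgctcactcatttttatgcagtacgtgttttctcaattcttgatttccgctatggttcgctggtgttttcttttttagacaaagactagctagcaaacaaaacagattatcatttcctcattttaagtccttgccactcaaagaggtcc
Pou2af1: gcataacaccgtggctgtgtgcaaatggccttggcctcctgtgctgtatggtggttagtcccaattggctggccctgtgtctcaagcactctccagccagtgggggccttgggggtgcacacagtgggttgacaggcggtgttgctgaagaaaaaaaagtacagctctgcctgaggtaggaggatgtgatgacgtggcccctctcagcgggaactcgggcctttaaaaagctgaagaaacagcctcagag
Vpreb3: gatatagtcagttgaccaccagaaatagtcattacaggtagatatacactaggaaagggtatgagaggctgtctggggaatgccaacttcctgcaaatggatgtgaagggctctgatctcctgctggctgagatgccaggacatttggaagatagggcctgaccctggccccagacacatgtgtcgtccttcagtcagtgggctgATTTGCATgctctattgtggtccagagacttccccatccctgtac

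RefSeq windows were at hand for 26 of the 35 measured members, 39 windows in all since some genes have several starts. TGGGAA or its reverse complement TTCCCA lay in 10 of the 39 windows, 25.6%, against 21.6% of all 32851 windows of this length, a share near the background. The octamer or its reverse complement ATTTGCAT lay in 3 of the 39, those of Vpreb3, Blnk and one start of Ccr6, or 7.69% against 1.6% of all windows. No member window held both motifs. These matches describe the letters of the windows only.

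Each value below is an intensity relative to its array's median, which is 1, and each difference is that of log2(value + 0.248), depleted minus wild type. The added constant makes the differences of dim genes too small. In the first depleted array the B cell genes were mostly lower than in wild type: 29 of 35 were lower, against 50.2% of all genes tested, and their median difference was -0.77, against -0.003 over all genes. In the second depleted array 12 of 35 were lower and 23 higher, where 30.2% of all genes were lower, and their median of 0.26 lay beside 0.22 over all genes tested. For 17 members the wild type value lay between those of the depleted arrays. Over all genes tested it lay above both for 19.5% and below both for 39%, so lying between was common there too.

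**Figure D1:**
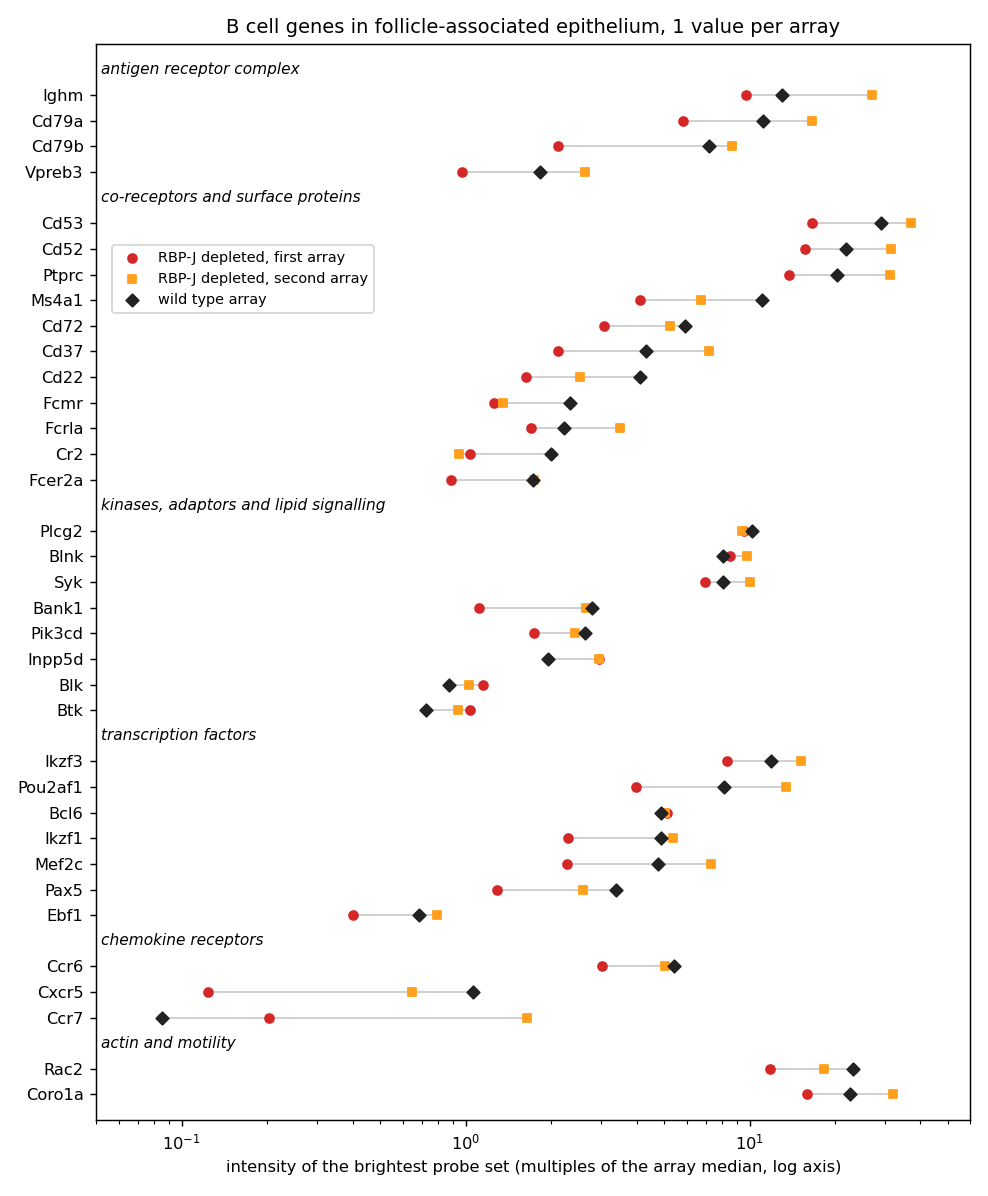
Intensity of each B cell gene in the first and second RBP-J depleted arrays and in the wild type array, in multiples of the array median on a log axis, grouped by role. The first depleted array gave the lowest point for most genes, while wild type lay above both depleted arrays for 12 genes and below both for 6.

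At least 1.5-fold lower values than in wild type were read for 19 members, 54.3%, in the first depleted array, where 11.4% of all genes tested passed that limit. In the second it was 4 members, 11.4%, against 5.52% of all genes. The same 4 genes, Cd22, Cr2, Fcmr and Ms4a1, passed it in both arrays, a share of 11.4% against 2.23% of all genes. At least 1.5-fold higher values were read for 0 members in the first array, against 10.6% of all genes, and for 7 in the second, 20%, a share near the 17.6% of all genes. Cd37, Mef2c and Pou2af1 passed the limit downward in the first array and upward in the second, 8.57% of members against 0.825% of all genes. This holds for the values as deposited, and the median difference over all genes in the second array was 0.22. With its differences centred on that median, none of these genes passed the limit upward.

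Wild type lay above both depleted arrays for 12 members, 34.3%, against 19.5% of all genes, and below both for 6, 17.1%, against 39% of all genes. A lower value in the first depleted array than in the second was found for 29 members, 82.9%, against 66.9% of all genes. In bulk tissue, a different number of B cells and a different amount of RNA per B cell cannot be told apart. For the 16 members shared with other leukocytes, the cells that gave the RNA are not known either.

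No member was called by limma, whose Benjamini-Hochberg adjusted p was 0.9997 or above for each of them, while 10 of the 11885 genes, 0.0841%, were called at an adjusted p under 0.05, among them 4 sex-linked genes. Ms4a1 and Ccr7, 2 of the 35 members, had an unadjusted p under 0.05, as did 270 of the 11885 genes tested. The wild type and first depleted values of Ccr7 lie under the added constant of 0.248. With 1 wild type array, a gene's own spread could come only from the depleted arrays, and the wild type array was assumed to vary like them. Each SE given is almost wholly the spread that the intensity trend over all genes assigns, not the gene's own. Cd79b had an SE of 0.495 where its depleted arrays had an SD of 1.355 on the log2 scale. For Cr2 these were 0.569 and 0.072. The differences given below are therefore values of these arrays, none of which passed the test.

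**Figure D2:**
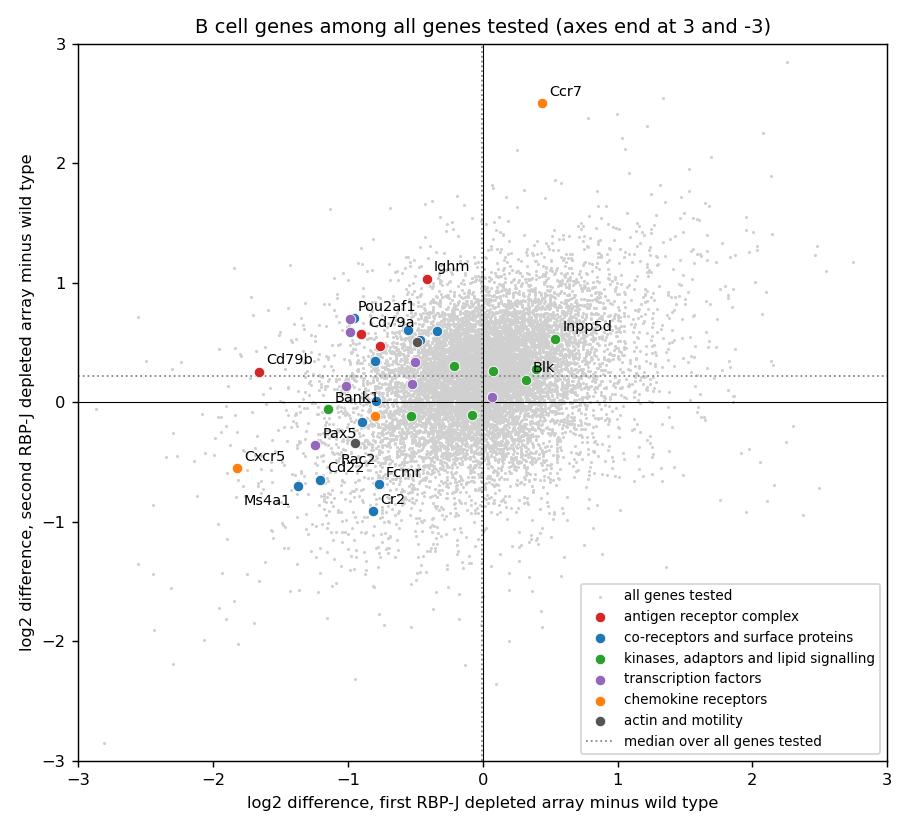
Log2 difference from wild type in the first (horizontal) and the second (vertical) depleted array, 1 point per gene, with B cell genes coloured by role over all genes tested in grey. Both axes subtract the same wild type array; most B cell genes lie left of 0, at a median of -0.77, and spread about the median of all genes, 0.22, on the vertical axis.

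The second depleted array was brighter in its upper range, with a 75th percentile of 4.79, against 4.05 in the first and 4.19 in wild type, so its differences are to be read against 0.22. Of the members, 17 lay under that median. When each array's differences were centred on its own median, 18 members were higher in the second depleted array and 17 lower, and after quantile normalization or with the same 75th percentile in every array 20 were higher and 15 lower. The count of members at least 1.5-fold higher in the second array was 2, in place of 7, under each of these scalings. In the first array 29 members were lower under all of them.

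The 4 genes grouped with the antigen receptor were all lower than wild type in the first and higher in the second. Their medians were -0.83 and 0.52. Cd79a, a signalling chain of the receptor, read 5.85 and 16.7 in the depleted arrays, against 11.1 in wild type. Its partner Cd79b read 2.11 and 8.66, against 7.21 in wild type. For both chains wild type lay inside the range of the depleted arrays.

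Ighm, the constant region of the IgM heavy chain, read 9.72 and 27.0 in the depleted arrays, against 13.1 in wild type. Vpreb3, a B lineage protein related to the surrogate light chain, read 0.974 and 2.63, against 1.83 in wild type. Between the depleted arrays these 4 genes differed by 1.23 to 1.92 on the log2 scale, with the first array lower. The mean log2 difference was -0.17 (SE 0.47) for Cd79a and 0.31 (SE 0.46) for Ighm.

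Ighm had 11 probe sets, of which 9 passed the filter on dim values. In the first depleted array 8 of the 9 were lower than in wild type, and in the second 7 of the 9 were higher. The probe set that was higher in the first read 4.40 there and 0.442 in the second, against 0.759 in wild type. Probe sets of immunoglobulin genes can share sequence with other heavy chain transcripts, so which transcripts each measured is uncertain.

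Co-receptors and other surface proteins read below wild type in the first depleted array for each of the 11 genes measured, at a median of -0.80. In the second, 5 were lower and 6 higher, with a median of 0.01, under the 0.22 of all genes. Ms4a1, the gene of CD20, read 4.12 and 6.73 in the depleted arrays, against 11.1 in wild type (mean log2 difference -1.03, SE 0.48, limma adjusted p = 0.9997). Its other probe set was lower as well, by -0.81 and -0.39.

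Cd22, an inhibitory lectin of the receptor, read 1.64 and 2.53 in the depleted arrays, against 4.11 in wild type (mean log2 difference -0.93, SE 0.52, limma adjusted p = 0.9997). Its second probe set gave -2.10 and -0.60. The wild type value lay above both depleted values in each probe set of Ms4a1 and Cd22.

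Cr2 encodes the complement receptor CD21, which lowers the threshold for B cell activation and is also made by follicular dendritic cells. It read 1.04 and 0.949 in the depleted arrays, against 2.01 in wild type. Fcmr, the Fc receptor for IgM, read 1.26 and 1.35, against 2.33 in wild type. The depleted arrays lay close together for both genes, at an SD of 0.07 on the log2 scale for Cr2 and 0.06 for Fcmr, and differed from wild type by means of -0.86 and -0.73. Both genes read within 3 multiples of the array median, and with a pseudocount of 1 neither they nor Cd22 reached 1.5-fold in both arrays, which left Ms4a1. With a gene's probe sets averaged, Cd22, Cr2 and Fcmr reached it and Ms4a1 did not.

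Cd72, an inhibitory receptor, read 3.06 and 5.26 in the depleted arrays, against 5.92 in wild type. Fcer2a, the gene of the IgE receptor CD23, read 0.891 and 1.74, against 1.72 in wild type. For these genes the first depleted array stood apart, while the second lay near wild type. Fcrla, an Fc receptor-like protein kept inside B cells, read 1.71 and 3.50, against 2.23 in wild type, and its other probe sets gave -1.06 and 0.43, and -1.08 and -0.86.

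The remaining surface genes of this group are also expressed by other leukocytes. Cd37, a tetraspanin, read 2.12 and 7.21 in the depleted arrays, against 4.33 in wild type, but its dimmer probe set was lower in both, with 0.710 and 0.817, against 1.67 in wild type. Cd53, another tetraspanin, read 16.6 and 36.9, against 29.0 in wild type. Wild type lay between the depleted arrays for both brightest probe sets.

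Cd52, a small glycosylated surface protein, read 15.7 and 31.5 in the depleted arrays, against 21.8 in wild type. Ptprc, the CD45 phosphatase of all white blood cells, read 13.8 and 31.1, against 20.4 in wild type. Coro1a, which binds actin in leukocytes, read 16.0 and 32.1, against 22.5 in wild type. These 3 genes, all bright, gave differences of -0.47, -0.55 and -0.49 in the first depleted array. Those of the second were 0.52, 0.60 and 0.51. A dimmer probe set of Ptprc had the opposite signs, with 0.412 and -0.702. The other probe sets of Coro1a gave -0.731 and 0.635, and -0.223 and -0.829.

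Kinases, adaptors and lipid signalling genes differed least from wild type in the first depleted array, where 4 of 8 were lower and the median was -0.01. In the second the median was 0.23, near the 0.22 of all genes. Plcg2, the phospholipase C of the receptor pathway, read 9.59 and 9.45 in the depleted arrays, against 10.2 in wild type. The adaptor Blnk read 8.52 and 9.77, against 8.09 in wild type. Syk, the kinase that binds the CD79 chains, read 6.96 and 10.1, against 8.09 in wild type.

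Of these 3 genes, Plcg2 and Syk are used by other leukocytes as well. Bank1, a B cell scaffold protein, stood out in the group, at 1.12 and 2.67 in the depleted arrays, against 2.78 in wild type. Pik3cd, the leukocyte catalytic subunit of phosphoinositide 3-kinase, read 1.75 and 2.42, against 2.64 in wild type. Wild type lay above both depleted arrays for Bank1 and Pik3cd, by little in the second.

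Inpp5d, the lipid phosphatase SHIP1, which opposes that kinase, read 2.96 and 2.94 in the depleted arrays, against 1.96 in wild type. The Src family kinase Blk read 1.15 and 1.03, against 0.873 in wild type. Btk, a kinase upstream of Plcg2, read 1.03 and 0.937, against 0.726 in wild type. These 3 genes were higher than wild type in both depleted arrays, by means of 0.54 (SE 0.52), 0.26 (SE 0.59) and 0.34 (SE 0.60). The second probe set of Inpp5d differed by 0.19 and 0.06, and averaging both lowered its mean difference to 0.33. Btk lies on the X chromosome, and the arrays also differed in sex-linked genes: Xist read 42.8 and 43.4 in the depleted arrays, against 0.297 in wild type, and Eif2s3y of the Y chromosome 0.122 and 0.056, against 20.6. Genotype and sex cannot be told apart in these arrays.

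Of the 7 transcription factors, 6 read below wild type in the first depleted array (median -0.98) and 1 was lower in the second (median 0.16). Pax5, which holds B cell identity, was that one, at 1.29 and 2.59 in the depleted arrays, against 3.39 in wild type (mean log2 difference -0.80, SE 0.53). Pou2af1, the octamer coactivator, read 3.997 and 13.4, against 8.14 in wild type. Pax5 was thus lower in both depleted arrays, while wild type lay between them for Pou2af1.

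Mef2c, which acts downstream of the antigen receptor, read 2.28 and 7.32 in the depleted arrays, against 4.77 in wild type. Its 4 other probe sets were lower in both depleted arrays, by -1.66 to -0.97 in the first and by -0.66 to -0.02 in the second. The higher value of Mef2c in the second array thus came from its brightest probe set alone.

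Ikzf1, the Ikaros factor of lymphoid cells, read 2.30 and 5.39 in the depleted arrays, against 4.89 in wild type. Its relative Ikzf3, the Aiolos factor, read 8.33 and 15.2, against 11.9 in wild type. A dimmer probe set of each was lower in both depleted arrays, by -1.39 and -0.21 for Ikzf1 and by -1.23 and -0.12 for Ikzf3. Ebf1, the early B cell factor, was dim throughout, at 0.401 and 0.795, against 0.687 in wild type. Bcl6, the repressor of germinal centre B cells, read 5.13 and 5.04, against 4.89 in wild type, but its second probe set, of like brightness, read 4.34 and 6.53, against 3.23 in wild type. Averaging both Bcl6 probe sets gave a mean log2 difference of 0.37 in place of 0.05.

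Among chemokine receptors, Cxcr5, which brings B cells into follicles, read 0.124 and 0.648 in the depleted arrays, against 1.07 in wild type. Its mean log2 difference was -1.19 (SE 0.66), but the first depleted value is smaller than the pseudocount of 0.248, on which the difference then depends. Ccr6, the receptor for the epithelial chemokine CCL20, read 3.01 and 5.02, against 5.44 in wild type. Wild type lay above both depleted arrays for Cxcr5 and Ccr6.

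Ccr7, which guides lymphocytes to T cell zones, read 0.203 and 1.64 in the depleted arrays, against 0.085 in wild type. The wild type and first depleted values of Ccr7 are both smaller than that pseudocount too, and its mean log2 difference of 1.47 (SE 0.68) depends on it likewise. Rac2, a GTPase of blood cells that drives motility, read 11.8 and 18.2, against 23.1 in wild type (mean log2 difference -0.64, SE 0.45). It was lower in both depleted arrays, and its dimmer probe set gave -0.19 and -0.22.

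**Figure D3:**
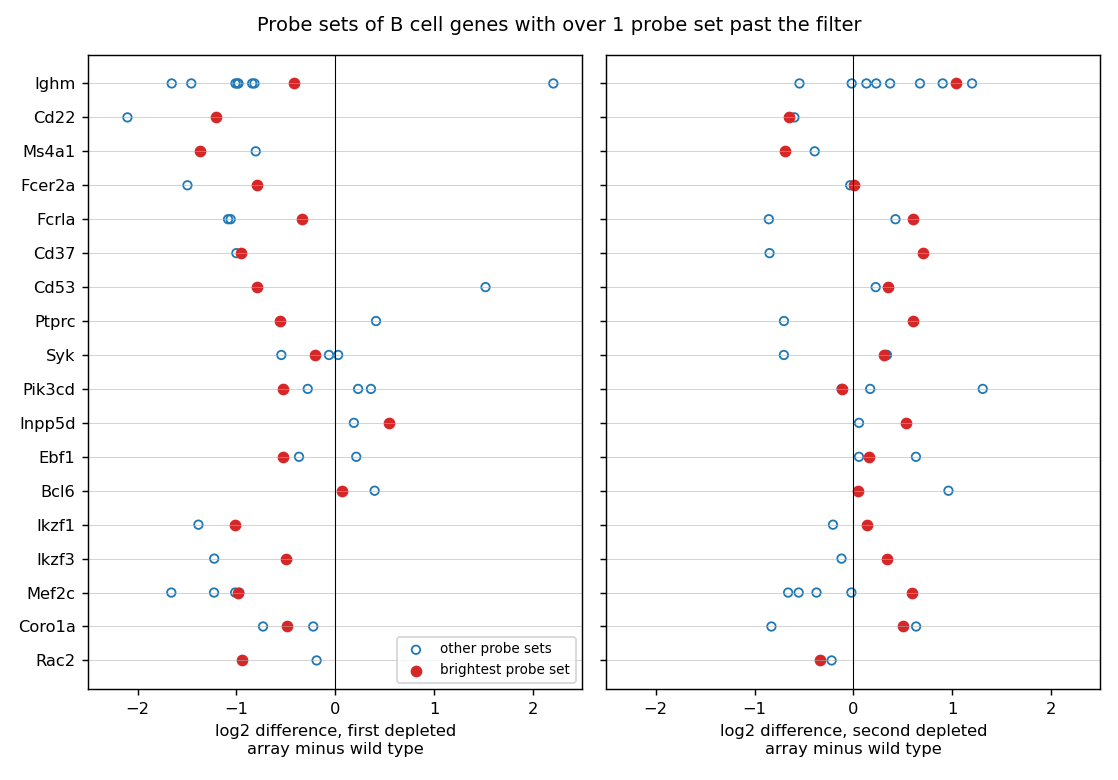
Log2 difference from wild type in the first (left) and second (right) depleted array for each probe set past the filter of the 18 B cell genes with over 1 such probe set; filled points are the brightest probe set. In the first array the probe sets of 12 genes had 1 sign, and in the second those of 7.

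Over all members, 70 probe sets passed the filter, and the first depleted array was below wild type in 55 of them and the second in 30. Of the 18 members with over 1 such probe set, 12 had probe sets of a single sign in the first array and 7 in the second. Opposite signs in the first array were found for Cd53, Ebf1, Ighm, Pik3cd, Ptprc and Syk. In the second they were found for Cd37, Coro1a, Fcer2a, Fcrla, Ighm, Ikzf1, Ikzf3, Mef2c, Pik3cd, Ptprc and Syk.

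The members were also divided by how widely they are expressed, from textbook knowledge. The 19 genes mostly of the B lineage had medians of -0.81 and 0.16 in the depleted arrays, with 17 lower in the first and 8 in the second. The 16 shared with other leukocytes had medians of -0.51 and 0.33, with 12 lower in the first and 4 in the second. The 4 genes that were 1.5-fold lower in both arrays all belong to the first division. That division included Cr2, also made by follicular dendritic cells, and Ikzf3, while its relative Ikzf1 was placed in the second. Other ways to divide the members were not tried.

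A further list of B cell and antigen receptor genes, 42 of them tested, had medians of -0.16 and 0.29, and none was called. Of these, 32 read below wild type in the first array, 76.2% against 50.2% of all genes, and 13 in the second, 31% against 30.2%. Only Tcf3, an E protein gene, was at least 1.5-fold lower in both, 2.38% against 2.23% of all genes, so the last 2 shares are near the background. Lower in both arrays by any amount were 11 genes, and higher in both were 8. Tcf3 read 8.63 and 9.15 in the depleted arrays, against 14.3 in wild type. Siglecg, an inhibitory lectin of B cells, read 1.52 and 1.79, against 2.498 in wild type. Among the 8 were the adaptor Grb2, at 9.90 and 12.4, against 6.92 in wild type, Pou2f2, the Oct-2 gene, at 2.21 and 1.08, against 0.695, and Bach2, a repressor of plasma cell fate, at 2.27 and 4.28, against 1.66.

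**Figure D4:**
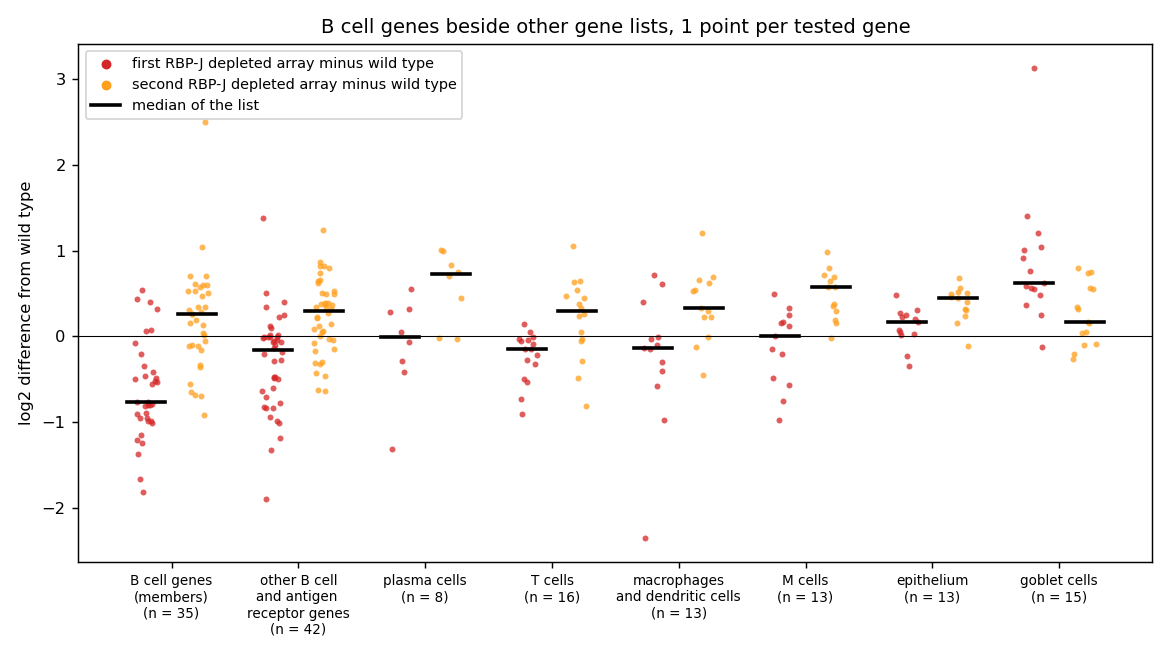
Log2 difference from wild type in the first and second depleted arrays for the B cell genes and 7 other gene lists, 1 point per tested gene, with bars at the medians. In the first array the B cell genes had a median of -0.77, against medians of -0.16 to 0.62 for the other lists; in the second theirs was 0.26, against 0.17 to 0.73.

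The summed intensity of the 35 B cell genes was 168.6 and 330.4 in the depleted arrays, against 264.3 in wild type. Most of it came from the 16 genes shared with other leukocytes, at 111.3 and 207.2, against 164.8. The 19 genes mostly of the B lineage summed to 57.3 and 123.1, against 99.5. Markers of other cells stood beside these sums as follows, and their part in the result was not tested. T cell markers, with 18 of 20 measured, summed to 64.6 and 88.7, against 76.2 in wild type, and 14 and 5 of 16 tested were lower. Plasma cell markers, with 9 of 12 measured, summed to 158.4 and 253.3, against 168.0. Macrophage and dendritic cell markers, with 17 of 20 measured, summed to 78.6 and 107.7, against 87.0. Of 8 plasma cell markers tested, 4 and 2 were lower, and of 13 macrophage and dendritic cell markers, 10 and 3. Over all genes these shares were 50.2% and 30.2%. Most T cell markers and most macrophage and dendritic cell markers thus read lower in the first array, like the B cell genes. Their medians there were -0.14 for each list, against -0.77 for the B cell genes. Bright genes weigh most in these sums. Lyz2 alone read 55.7 and 70.0, against 56.8 in wild type. Of the plasma cell list, Igha read 60.9 and 125.4, against 74.5, and Xbp1 42.8 and 40.9, against 41.5.

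The tissue's own markers were bright in all 3 arrays. Epcam, the epithelial adhesion molecule, read 128.8 and 153.0 in the depleted arrays, against 108.7 in wild type, and the 13 epithelial markers summed to 996.9 and 1170.7, against 896.4. Goblet cell markers, with 15 of 16 measured, summed to 1151.8 and 986.7, against 742.9 in wild type, with medians of 0.62 and 0.17. M cell markers, with 13 of 14 measured, summed to 526.5 and 700.1, against 482.5. Of these 13, 6 were lower in the first depleted array, against 50.2% of all genes. In the second 1 was lower, against 30.2% of all genes. The defining marker Gp2 read 9.9 and 32.6, against 19.8 in wild type. Spib read 33.8 and 67.6, against 38.9, and Tnfaip2 40.5 and 49.5, against 40.2. No defining marker was listed at 0, and the dimmest of them were Tnfrsf17 of plasma cells, at 0.069 and 0.246, against 0.049, and Adgre1 of macrophages, at 0.127 and 0.098, against 0.151.

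The signal of 3' over 5' control probe sets, which grows as RNA degrades, was highest in the first depleted array for Gapdh, at 2.28, against 1.54 in the second and 1.83 in wild type. For Actb it was 1.15 and 1.02 in the depleted arrays, against 1.11 in wild type. The first depleted array thus had the lower summed B cell value and the highest ratios, and the part of RNA quality in those values was not tested. Rbpj itself read 2.72 and 5.74 in the depleted arrays, against 7.15 in wild type, and was not called. No source used here places its probe set relative to the deleted part, so its value does not check the depletion.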

How the data were processed

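RNA from 2 RBP-J depleted and 1 wild type sample of follicle-associated epithelium was measured on Affymetrix arrays after biotin labelling of cRNA, per the labels' protocols. The authors deposited a linear intensity for every probe set, and MAS5 is the tool named per the submitters' processing notes. Over 45101 probe sets each array's deposited intensities have a median of 1. No scanner file was used here. Precision is limited by having 3 arrays.

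Names came from the platform annotation: 34945 probe sets had 1 symbol, 932 several and 9160 none. A gene took its brightest probe set by mean, and genes with a mean of at least 0.598, the 40th percentile over probe sets, were tested. The log2(value + 0.248) values, the pseudocount being the 25th percentile of all values, were compared with limma 3.58.1 in R 4.3.3 (lmFit, eBayes with intensity trend, Benjamini-Hochberg over 11885 genes), with 1 residual degree of freedom and 600.5 prior ones. With so few residual degrees of freedom, each call, SE and p rests almost wholly on the spread that the intensity trend assigns. Alternatives were pseudocounts of 1 and 5, no filter or the 60th percentile, quantile, 75th percentile and median scaling, averaging all probe sets of a gene, eBayes without trend and leaving out each depleted array. The members, lists, 1.5-fold limit and rule for named genes (all members, and up to 4 genes per other list with the largest difference of one direction in both depleted arrays) were chosen with earlier results of these data known. Of other lists, those genes are named that a result turns on. Tnfrsf17, Adgre1, Bach2, Gp2, Spib, Tnfaip2, Lyz2, Igha and Xbp1 were named after their values were seen. Lymphoid stroma markers, 5 of 12 tested, had medians of 0.07 and 0.57.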

Additional observations from a re-analysis of the deposited data

How the results depend on the processing

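No B cell gene was called by limma under any alternative with a test. Leaving out a depleted array leaves no residual degree of freedom, so no test was run there. The lowest adjusted p of a member under any tested setting was 0.9997. The count of all genes called was 10, against 1 when no genes were filtered, 6 under a 60th percentile filter, 6 when arrays were centred on their median log2 value, 3 after quantile normalization and 4 when arrays shared a 75th percentile. At an unadjusted p under 0.05 the members numbered 0 to 3. The members at least 1.5-fold lower in both depleted arrays were 4, and 1 with a pseudocount of 1, 0 with a pseudocount of 5, by the shrinking of differences that a larger pseudocount brings, and 2 under a 60th percentile filter, which left 27 members. With the first or the second depleted array left out, the count in the remaining array was 4 or 19. The median over members of the mean difference was -0.17. It was 0.26 without the first depleted array and -0.77 without the second, so its sign rests on the first. The median of the first array lay between -0.80 and -0.34, and that of the second between 0.03 and 0.31, over the alternatives run. No paired analysis was possible because wild type has 1 array and the labels give it no replicate number.

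The mean differences of 10 members, all uncalled, turned sign under some alternative. With quantile normalization, the same 75th percentile and centred arrays, in that order, Cd52 gave -0.140, -0.044 and -0.053, Ptprc -0.140, -0.046 and -0.056, Syk -0.062, -0.021 and -0.032, Bcl6 -0.022, -0.014 and -0.027, and Coro1a -0.168, -0.063 and -0.073, against small positive values. With the mean of all probe sets, Ighm gave -0.037, Fcrla -0.386, Ptprc -0.060, Syk -0.064 and Coro1a -0.189, while Cd53 gave 0.324, Pik3cd 0.122 and Ebf1 0.009. The cause was not tested. Of 307 member values under alternatives, 284 kept their sign. Dim members, those near or under the pseudocount, have differences whose size is set by it.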
